A study of Mus musculus with 4 samples.

Results

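Fibroblast growth factors (FGFs), their receptors and the genes that feed back on FGF signalling were examined in wild-type (wt) and Top2β-null mouse embryonic fibroblasts (MEF cells). The members were every mouse gene named Fgf, Fgfr, Spry or Spred with a number, together with Fgfrl1, the ERK phosphatases Dusp4, Dusp5 and Dusp6 and the PEA3 transcription factors Etv1, Etv4 and Etv5, which gave 40 of the 54842 genes in the table. The study sequenced total RNA, depleted of ribosomal RNA, from 2 libraries of untreated wt MEF cells and 2 libraries of untreated MEF cells null for topoisomerase 2β (Top2β-null or null cells), an enzyme that passes one DNA duplex through another. For these libraries the stated question was whether DNA topology takes part in the transcription of major satellite repeats. The wt and Top2β-null MEF cells came from different sources, the null cells from Top2β-null mice, so that cell origin and genotype cannot be told apart. No source used here says whether both libraries of a genotype came from separate cultures, and the p-values then measure only the spread between these libraries, which may be technical.

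FGFs are secreted proteins that bind receptor tyrosine kinases together with heparan sulfate at the cell surface. The FGF11 subfamily differs in that it stays inside the cell, and the FGF15/19 subfamily in that it circulates as hormones and uses Klotho proteins as co-receptors. An activated receptor signals through the adaptor FRS2 and RAS to the kinase ERK. ERK signalling switches on the PEA3 factors and a set of inhibitors, of which Sprouty and Spred proteins act upstream of ERK and the DUSP phosphatases remove phosphate from MAP kinases. In embryonic mesenchyme FGF7 and FGF10 are classical signals from fibroblasts to the neighbouring epithelium.

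Promoters of 29 of the 40 members were found in the RefSeq table for GRCm38.p6. The 250 bases before the start site are printed, 5′ to 3′ on the plus strand, for Fgf7 and Dusp6, which were called higher in Top2β-null MEF cells, for Spry1, which was called lower, and for Fgf23, the ligand with the largest log2 fold change. The windows are chr2:126034408-126034657 for Fgf7, chr10:99262981-99263230 for Dusp6, chr3:37639697-37639946 for Spry1 and chr6:127072652-127072901 for Fgf23, and capitals mark a CCAAT box read on either strand.
Fgf7: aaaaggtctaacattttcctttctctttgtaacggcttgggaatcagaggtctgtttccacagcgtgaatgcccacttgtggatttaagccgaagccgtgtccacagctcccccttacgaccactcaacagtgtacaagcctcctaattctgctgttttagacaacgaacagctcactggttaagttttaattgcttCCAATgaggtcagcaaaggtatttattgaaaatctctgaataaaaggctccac
Dusp6: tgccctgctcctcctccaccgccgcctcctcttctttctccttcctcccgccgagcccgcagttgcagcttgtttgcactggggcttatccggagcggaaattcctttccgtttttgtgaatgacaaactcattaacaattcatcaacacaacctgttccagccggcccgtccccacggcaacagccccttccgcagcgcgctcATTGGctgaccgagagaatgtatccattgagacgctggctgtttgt
Spry1: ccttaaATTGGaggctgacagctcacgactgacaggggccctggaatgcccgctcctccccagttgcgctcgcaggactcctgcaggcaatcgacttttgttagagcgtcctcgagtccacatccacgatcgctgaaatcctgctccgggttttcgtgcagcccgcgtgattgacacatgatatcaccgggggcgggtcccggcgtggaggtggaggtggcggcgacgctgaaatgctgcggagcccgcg
Fgf23: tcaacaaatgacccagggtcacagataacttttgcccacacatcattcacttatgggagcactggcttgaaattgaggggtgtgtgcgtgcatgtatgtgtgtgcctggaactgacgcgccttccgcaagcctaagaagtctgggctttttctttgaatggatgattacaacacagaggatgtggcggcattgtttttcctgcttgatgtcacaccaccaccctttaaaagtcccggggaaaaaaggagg
The search covered the TATA box (TATAAA), the CCAAT box (CCAAT), a PEA3 site (AGGAAGT), an ETS site (CCGGAAG), AP-1 (TGACTCA), CRE (TGACGTCA), the E-box (CACGTG) and the CArG box, on both strands. CCAAT was the one motif matched in the Fgf7, Dusp6 and Spry1 windows, and none of these motifs was matched in that of Fgf23. Counted by window, CCAAT stood in 12 of the 38 promoters of the 29 members and in 33.8% of all 32851 RefSeq promoters of this length. The PEA3 letters stood in 2 of the 38, from Dusp5 and Spred2, and in 7.69% of all promoters. The ETS letters stood in 1, from Fgfrl1, and in 6.91% of all promoters. Dusp5 held 2 CArG boxes, a motif found in 1.47% of all promoters. The printed windows differed in base composition, since Dusp6 held 16 CpG dinucleotides and Spry1 held 23, whereas Fgf7 and Fgf23 held 6 each, which was also the median of all promoters.

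Top2b itself fell by 2.26 on the log2 scale (SE 0.0271), from 18362 ± 145 normalized counts in wt to 3834 ± 63.1 in Top2β-null MEF cells (SD, n = 2), so that reads of this gene were fewer and not absent. Libraries held between 133116830 and 149647278 counts. All 11 fibroblast markers were detected in both genotypes, with a summed level of 1342590 to 1366550 normalized counts in wt and 940822 to 947675 in the null cells. That sum was carried by abundant genes such as Col1a1, Vim and Fn1, which fell, whereas by gene 6 of the 11 markers rose and 4 fell, with 4 called higher and 2 lower. Dcn, for example, had 225 ± 2.1 in wt and 7146 ± 132 in the null cells (SD, n = 2). Of the markers of other cell types, the epithelial list summed to 39.4 and 45.4 normalized counts in wt and to 15.5 and 19.8 in the null cells, and the skeletal muscle list to between 3.03 and 6.76 per library. The leukocyte list summed to 39.4 and 45.4 in wt against 86.0 and 89.1, with Itgam at 1.01 and 0.97 in wt and at 28.0 and 28.7 in the null cells. The endothelial list summed to 165 and 162 in wt against 252 and 259, through Kdr, which was called higher with a log2 fold change of 1.54, whereas Tek fell by 2.54 and Pecam1 and Cdh5, at -0.50 and -0.16, did not pass the test. Tyrobp and Myog were at 0 in every library and Epcam reached at most 3.11. The neural and glial list summed to 2199 and 2223 in wt and to 5111 and 5396 in the null cells, mostly through Tubb3, and Sox2 had 0 in both wt libraries against 677 and 730 in the null libraries. The part of these differences in the results that follow was not tested. In bulk RNA, fewer cells of a type and less RNA per cell cannot be told apart.

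The comparison of the genotypes found members moving in both directions within most roles. Normalized counts are counts scaled to a common library size. A gene is said here to rise or fall where the Benjamini-Hochberg adjusted p of edgeR's quasi-likelihood test was below 0.05. It was called where, in addition, the absolute log2 fold change was above 1 and the mean normalized count above 100. Of the 40 members, 28 had enough counts to be tested, which took 10 or more in 2 or more libraries, and 22 of these had a mean over 100. Fgf1, Fgf11, Fgf17 and Fgf23 passed this filter only through the genotype in which they were high, so the counts over the 28 are a description. Called higher in Top2β-null MEF cells were 5 members, Fgf7, Spry3, Spry4, Dusp6 and Etv1, and 2 were called lower, Spry1 and Dusp4. Over all 25085 genes tested, 5.52% were called higher and 5.25% lower, 10.8% in all. Of the genes with a mean over 100, 16.2% were called, beside 7 of 22 members, of which Spry3 has a mean over 100 only through the null cells. By the adjusted p alone 12 members rose and 12 fell, beside 32.8% and 33.7% of all genes tested. The median log2 fold change of the 28 members was 0.047, beside -0.0058 over all genes tested, and the median absolute log2 fold change was 0.75 beside 0.42. Libraries of the genotypes did not overlap for 26 of the 28 members and for 81.9% of all genes tested.

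**Figure D1:**
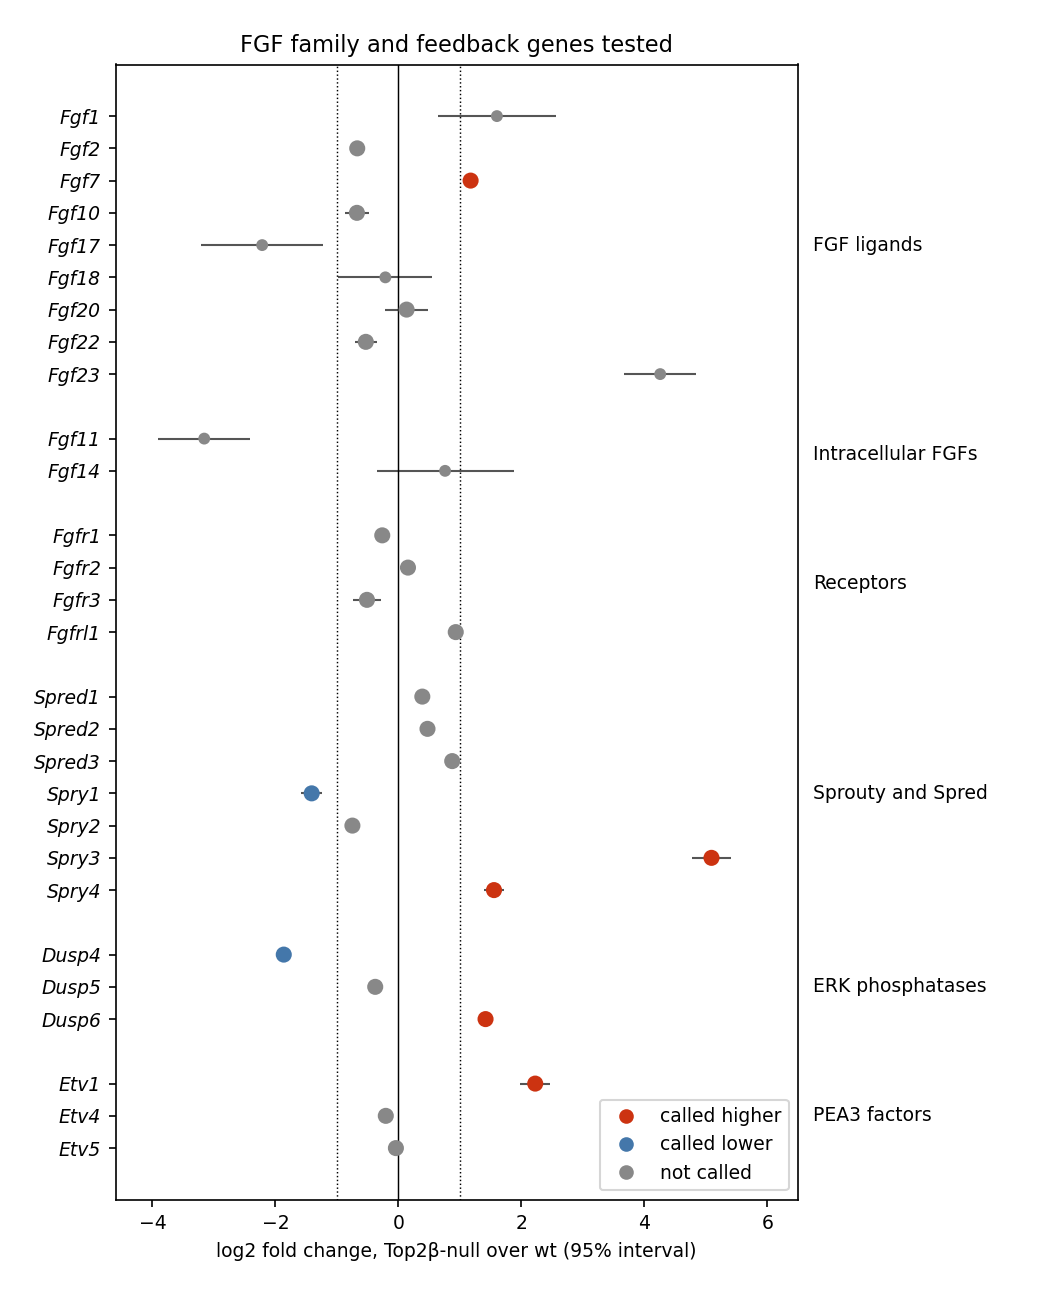
Log2 fold change of Top2β-null over wt MEF cells (x axis) for the 28 members tested (y axis, by role), with 95% intervals from edgeR. Dotted lines mark a log2 fold change of 1 in either direction, small points have a mean normalized count of 100 or less, and of the 7 called members 5 lie to the right and 2 to the left.

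Among the secreted ligands Fgf7 rose, and its relatives Fgf10 and Fgf22 fell. Fgf7, also known as keratinocyte growth factor (chr2:126034658-126091185), had 5176 and 5207 normalized counts in wt and 11613 and 11838 in the null cells. Both Top2β-null libraries stood far above both wt libraries, with a log2 fold change of 1.18 (SE 0.0262, edgeR adjusted p = 1.1e-15). Fgf10, which signals through the same receptor form as Fgf7, had 450 and 481 normalized counts in wt and 270 and 313 in the null cells, a log2 fold change of -0.67 (SE 0.0928, edgeR adjusted p = 8.8e-06). Fgf22, the remaining expressed gene of this subfamily, had 494 and 546 in wt and 346 and 374 in the null cells, a log2 fold change of -0.53 (SE 0.0844, edgeR adjusted p = 4.2e-05). The groups did not overlap for either gene, as was so for 81.9% of all genes tested, and neither reached the fold cut-off. Within each library Fgf7 had 11.5 and 10.8 times the counts of Fgf10 in wt, and 43.0 and 37.8 times in Top2β-null MEF cells. On the log2 scale that ratio differed by 1.85 between the genotypes (exact permutation test, two-sided, p = 0.33, the smallest p that 2 libraries against 2 can give).

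Fgf2, basic FGF and a common supplement of cultured cells, had 1119 and 1147 normalized counts in wt and 712 and 714 in the null cells. It fell by 0.67 on the log2 scale (SE 0.0572), with libraries of each genotype close together. Its exons share 9.44% of their length with Nudt6 on the opposite strand, and since no source used here states whether the counting used strand, reads of both genes may not be told apart. Fgf20 had 103 and 106 in wt and 107 and 123 in the null cells, and its log2 fold change of 0.13 (95% interval -0.22 to 0.49) did not pass the test, while 12.0% of its exon length is shared with Micu3 on the opposite strand. The acidic FGF, Fgf1, was near the limit of counting with 6.06 and 6.76 in wt against 19.7 and 19.8, and its log2 fold change of 1.60 had an edgeR adjusted p of 0.0052 but a DESeq2 adjusted p of 0.061. Fgf18 had 20.2 and 23.2 in wt and 19.7 and 17.8 in the null cells and did not pass the test (log2 fold change -0.21, 95% interval -0.98 to 0.55). Fgf17 went from 28.3 and 29.0 to 3.11 and 8.91, a log2 fold change of -2.21 (SE 0.465, edgeR adjusted p = 5.6e-04). Both Top2β-null libraries of Fgf17 were low and differed from each other, and the log2 fold change was -3.13 without replicate 2 and -1.63 without replicate 1 of that genotype.

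Fgf23 (chr6:127072902-127081408), a hormone known from bone that controls phosphate in the blood, showed the largest log2 fold change of the FGF genes. It had 13.1 and 5.80 normalized counts in wt and 193 and 171 in the null cells, and both null libraries lay far above both wt libraries. The log2 fold change was 4.26 (SE 0.277, edgeR adjusted p = 9.9e-10). With a mean of 95.7 it lay just under the mean cut-off of 100 and was not called. The log2 fold change was 4.93 without wt replicate 1 and 3.77 without wt replicate 2. It was called in both of these fits by construction, since leaving out a low wt library lifts the mean above 100. Kl, which encodes the Klotho co-receptor of FGF23, had at most 2.07 normalized counts in any library and was not tested. The other hormones of the subfamily were low, Fgf21 with 2 to 5 counts per library and Fgf15, the gut hormone, with 8 and 16 counts in wt and 1 and 0 in the null cells. No test was made for either.

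The intracellular factor Fgf11 (chr11:69796068-69801857), whose subfamily binds voltage-gated sodium channels, had 68.6 and 59.9 normalized counts in wt and 7.25 and 6.93 in the null cells. All values were under 100 and the groups stood well apart, with a log2 fold change of -3.16 (SE 0.352, edgeR adjusted p = 8.0e-07). Fgf14, of the same subfamily, had 10.1 and 4.83 in wt and 9.32 and 15.8 in the null cells, and the groups overlapped (log2 fold change 0.76, 95% interval -0.35 to 1.87). The remaining members under the count filter were Fgf3 and Fgf4, with 0 counts in every library, and Fgf5, Fgf6, Fgf8, Fgf9, Fgf12, Fgf13, Fgf16 and Fgfr4, none of which exceeded 7 counts in a library. At the depth of these libraries the floor of 3 counts corresponds to between 2.90 and 3.11 normalized counts, and it covers counting error only.

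**Figure D2:**
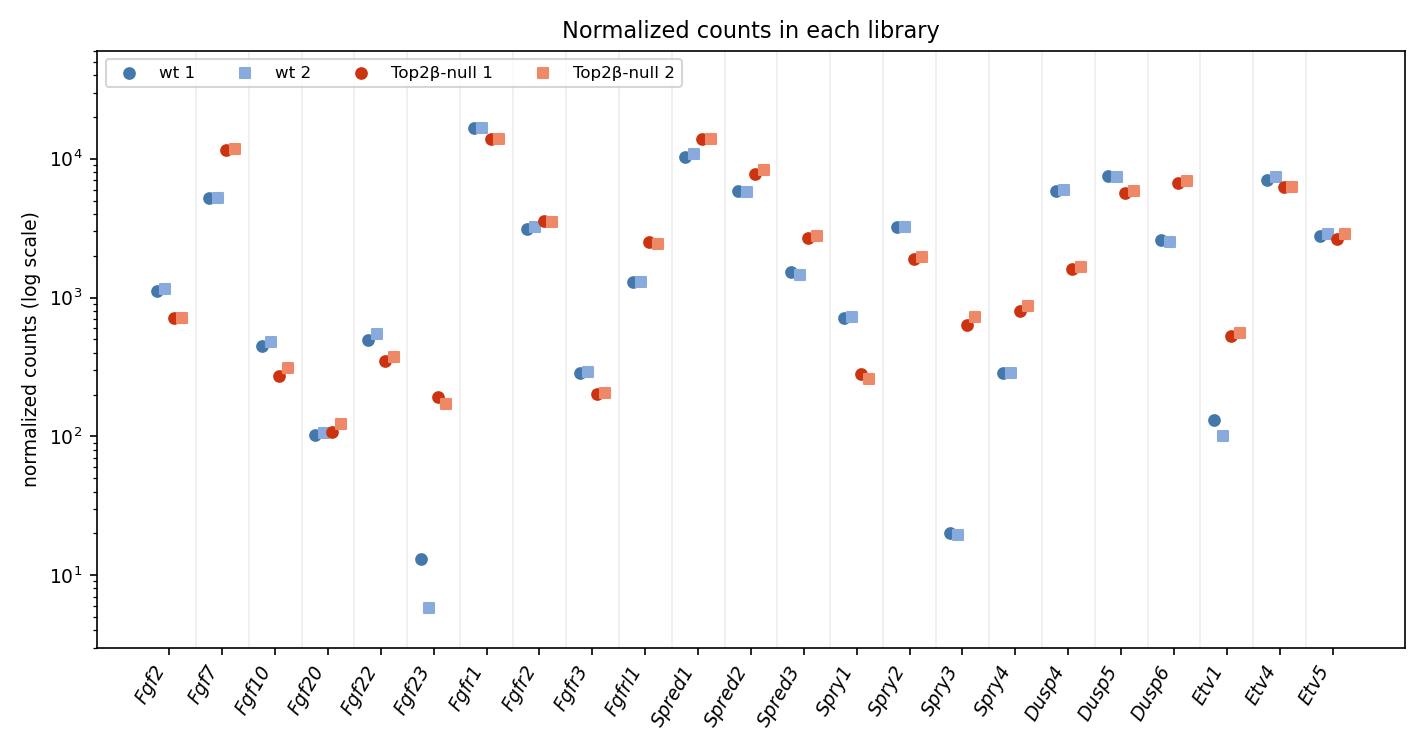
Normalized counts (y axis, log scale) in each of the 4 libraries for the 22 members with a mean over 100 and for Fgf23 (x axis). Circles are replicate 1 and squares replicate 2, and the genotypes overlap in Etv5 alone, whereas Spry3, Fgf23 and Etv1 show the widest gaps.

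Levels can be set against each other between genes when divided by exon length, as RPKM computed from the normalized counts. On that scale Fgf7 gave 72.3% ± 0.68 of the summed level of the 18 secreted ligands in wt and 87.2% ± 0.20 in the null cells (SD, n = 2). The sum of the 18 ligands was 1.87 times as high in Top2β-null MEF cells. The shares of the next ligands were smaller there, as Fgf22 went from 10.5% to 3.87%, Fgf2 from 7.56% to 2.54% and Fgf10 from 4.58% to 1.53%. Fgf23 went from 0.24% to 2.43%, which placed its level of 0.71 beside that of Fgf2 at 0.75. Each of these differences exceeded the spread between the libraries of a genotype.

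The kinase receptors showed small differences. Fgfr1, the receptor with the highest level, had 16633 and 16561 normalized counts in wt and 13817 and 13872 in the null cells. It fell by 0.26 on the log2 scale (SE 0.0241), a small difference that was nevertheless larger than the spread between libraries. Fgfr2, whose epithelial form is the receptor of FGF7 and FGF10, had 3096 and 3224 in wt and 3568 and 3478 in the null cells and rose by 0.16 (SE 0.0383, edgeR adjusted p = 0.0020). Its exons share 3.04% of their length with Ctbp2 on the same strand, where reads of both genes may not be told apart. Which splice form of the receptor was made cannot be read from counts per gene. Fgfr3 had 287 and 292 in wt and 202 and 204 in the null cells and fell by 0.51 (SE 0.106), and 13.9% of its exon length is shared with an unclassified transcript on the opposite strand. Fgfr4 had 2 to 7 counts per library and was not tested. None of the kinase receptors was called. Per exon length, Fgfr1 gave 82.9% ± 0.42 of the summed level of Fgfr1 to Fgfr4 in wt and 79.1% ± 0.30 in the null cells, and Fgfr2 gave 15.1% and 19.2%.

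Fgfrl1 (chr5:108692382-108706924), a receptor that binds FGFs and lacks the kinase domain, had a larger log2 fold change than the kinase receptors. It had 1297 and 1290 normalized counts in wt and 2516 and 2428 in the null cells. The libraries of each genotype lay close together and the log2 fold change was 0.93 (SE 0.0466, edgeR adjusted p = 3.4e-11), just under the cut-off of 1, and it became 1.00, and called, when libraries were scaled to their total counts. Relative to Fgfr1 in the same library, the log2 ratio of Fgfrl1 differed by 1.20 between the genotypes (exact permutation test, two-sided, p = 0.33, the smallest possible).

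The Sprouty genes, inhibitors of receptor signalling that are themselves induced by ERK, split into 2 that fell and 2 that rose. Spry2, the Sprouty gene with the highest level, had 3212 and 3213 normalized counts in wt and 1881 and 1946 in the null cells, a log2 fold change of -0.75 (SE 0.0414). Spry1 (chr3:37639947-37644598), whose promoter is printed above, had 716 and 719 in wt and 281 and 259 in the null cells. It fell by 1.41 on the log2 scale (SE 0.0781, edgeR adjusted p = 1.3e-10) and was called, although 24.4% of its exon length is shared with an unclassified transcript on the opposite strand. Spry4 moved the other way, with 284 and 287 in wt and 806 and 872 in the null cells, a log2 fold change of 1.56 (SE 0.0762, edgeR adjusted p = 2.6e-11).

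Spry3 had the largest log2 fold change of all members. Its gene lies on an unlocalized scaffold of chromosome X in GRCm38 (bases 101352 to 106395), and it had 20.2 and 19.3 normalized counts in wt and 637 and 718 in the null cells. That is a log2 fold change of 5.09 (SE 0.147, edgeR adjusted p = 3.0e-14), which ranged from 5.02 to 5.22 when single libraries were left out. Both wt libraries were at 20 counts, above the floor of 3 counts. Within a library, Spry4 had 0.40 times the counts of Spry1 in both wt libraries and 2.87 and 3.36 times in the null libraries.

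Per exon length, the make-up of the Sprouty family shifted while its sum went down to 0.73 times the wt level. Spry2 gave 83.2% ± 0.046 of the sum in wt and 68.3% ± 0.38 in the null cells (SD, n = 2), and Spry1 gave 13.3% and 6.93%. Spry4 went from 3.24% to 13.1% and Spry3 from 0.25% to 11.6%. In Top2β-null MEF cells Spry3 and Spry4 thus stood at levels of 1.11 and 1.25, above Spry1 at 0.66, whereas in wt both stood below it.

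The 3 Spred genes, which encode inhibitors that hold the RAS regulator neurofibromin at the membrane, all rose and none was called. Spred1 had 10312 and 10783 normalized counts in wt and 13837 and 13809 in the null cells, a log2 fold change of 0.39 (SE 0.0270). Spred2 had 5823 and 5746 in wt and 7775 and 8293 in the null cells, a log2 fold change of 0.47 (SE 0.0317). Spred3 rose most, from 1519 and 1452 to 2696 and 2755, a log2 fold change of 0.88 (SE 0.0458). The groups did not overlap in any of the 3 genes, as was so for 81.9% of all genes tested. The sum of the Spred levels per exon length was 1.38 times as high in Top2β-null MEF cells, opposite in direction to the Sprouty sum.

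**Figure D3:**
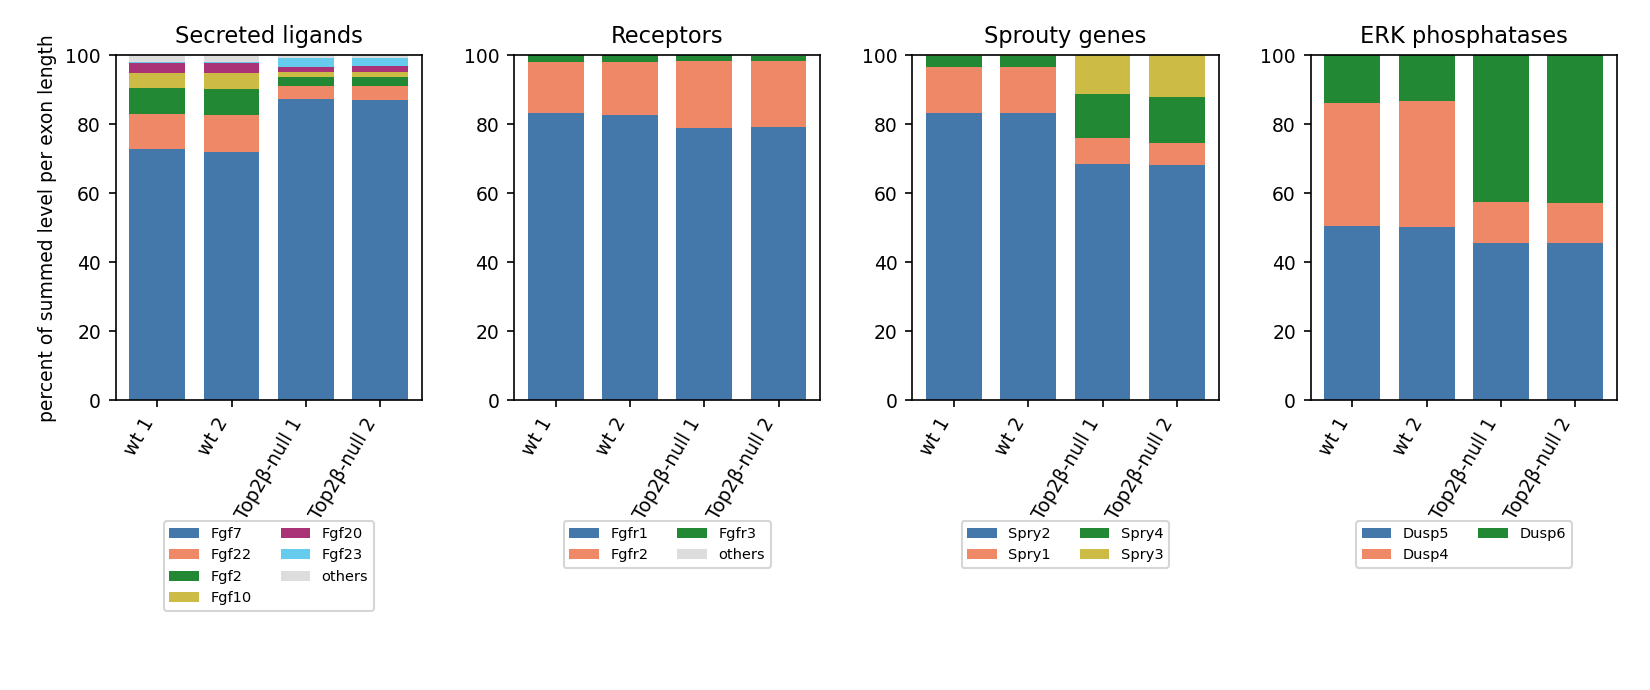
Share of each gene (y axis, percent) in the summed level per exon length of the secreted ligands, the kinase receptors, the Sprouty genes and the ERK phosphatases, in each library (x axis); others are genes that stayed at or under 2% in every library. Libraries of a genotype look alike, and Dusp6, at 13.6% in wt and 42.7% in the null cells, and Spry3, at 0.25% and 11.6%, show the shifts most plainly.

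The ERK phosphatases moved in opposite directions. Dusp4 (chr8:34807297-34819894), a phosphatase of the nucleus, had 5892 and 5965 normalized counts in wt and 1608 and 1650 in the null cells. It fell by 1.86 on the log2 scale (SE 0.0366, edgeR adjusted p = 2.4e-16) and was called. Dusp6 (chr10:99263231-99267489), the cytoplasmic phosphatase specific for ERK that is widely read as a reporter of FGF signalling, had 2609 and 2497 in wt and 6686 and 6957 in the null cells. It rose by 1.42 (SE 0.0350, edgeR adjusted p = 4.2e-15) and was called. The third gene, Dusp5, a nuclear phosphatase, went from 7506 and 7403 to 5659 and 5828, a smaller fall of 0.38 (SE 0.0279), and 22.1% of its exon length is shared with an antisense transcript.

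Within a library, Dusp6 had 0.44 and 0.42 times the counts of Dusp4 in wt and 4.16 and 4.22 times in the null cells. On the log2 scale this ratio differed by 3.28 between genotypes (exact permutation test, two-sided, p = 0.33, the smallest possible), a measure that does not depend on how libraries are scaled. Per exon length, Dusp5 gave 50.3% and 45.6% of the summed level of the 3 phosphatases in wt and in the null cells, Dusp4 gave 36.1% and 11.7%, and Dusp6 gave 13.6% and 42.7%. The sum itself was 0.85 times the wt level, so that the shift in make-up was larger than the shift in the total.

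The PEA3 factors, ETS-family activators that are standard transcriptional targets of FGF signalling, did not move together. Etv4 had 6976 and 7419 normalized counts in wt and 6222 and 6276 in the null cells and fell by 0.20 (SE 0.0312, edgeR adjusted p = 2.7e-05). Etv5 had 2777 and 2850 in wt and 2626 and 2847 in the null cells. The Etv5 groups overlapped, and its log2 fold change of -0.040 (95% interval -0.14 to 0.056) did not pass the test and turned positive, to 0.030, when libraries were scaled to their total counts. Etv1 (chr12:38779380-38870484) had 131 and 100 in wt and 531 and 551 in the null cells, a log2 fold change of 2.23 (SE 0.114, edgeR adjusted p = 4.8e-11). Although it was called, Etv1 remained a minor part of the family. Per exon length it gave 0.29% of the summed PEA3 level in wt and 1.5% in the null cells, whereas Etv4 gave 76.9% and 74.0%.

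The genes around each member were compared next, as genes with a mean normalized count over 100 that reach within 500 kb. Of 21 members with at least 5 such neighbours, 19 had neighbours whose median log2 fold change lay between -0.5 and 0.5. The exceptions were Fgf11 and Fgf17. Fgf11 had 52 neighbours with a median of -2.05, of which 51 lay below 0 and 49 were called lower, among them Polr2a, the largest subunit of RNA polymerase II, at -2.03 and Eif4a1, a translation factor, at -2.04. Fgf17 had 18 neighbours with a median of -1.22, of which 17 lay below 0 and 12 were called lower. Of 14693 genes with at least 5 neighbours, 2.24% had a neighbourhood median below -1 and 0.86% one above 1. The falls of Fgf11 and Fgf17 thus stood among neighbours that fell as well, and the member lay 1.10 and 0.99 under the median of its neighbours.

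Fgf22 lay close to the exceptions, since 37 of its 42 neighbours were below 0 and their median was -0.46, beside its own log2 fold change of -0.53. Of the 7 called members, 4 had at least 5 neighbours. Fgf7 had 9 neighbours with a median of 0.039, of which 5 lay above 0 and 4 below. Spry1 had 9 with a median of -0.21, of which 8 lay below 0, and Spry1 itself was 1.20 under that median. Spry4 had 8 with a median of -0.13, of which 5 lay below 0, and Dusp6 had 5 with a median of -0.32, of which 4 lay below 0, while both members rose. Spry3 had 2, Vamp7 at -0.18 and Tmlhe at 0.20, on either side of it. Dusp4 had 2 neighbours with a median of 0.40 and Etv1 had none, so these 3 members have too few for a comparison. Fgf23 had 12 neighbours with a median of 0.37, all above 0, the lowest being D6Wsu163e at 0.0088. Of these, 3 were called higher, among them the cell cycle gene Ccnd2 at 1.13. The other called neighbours, 9330179D12Rik and Cracr2a, had wt means of 65.1 and 70.7 and pass the mean cut-off only through the null cells.

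**Figure D4:**
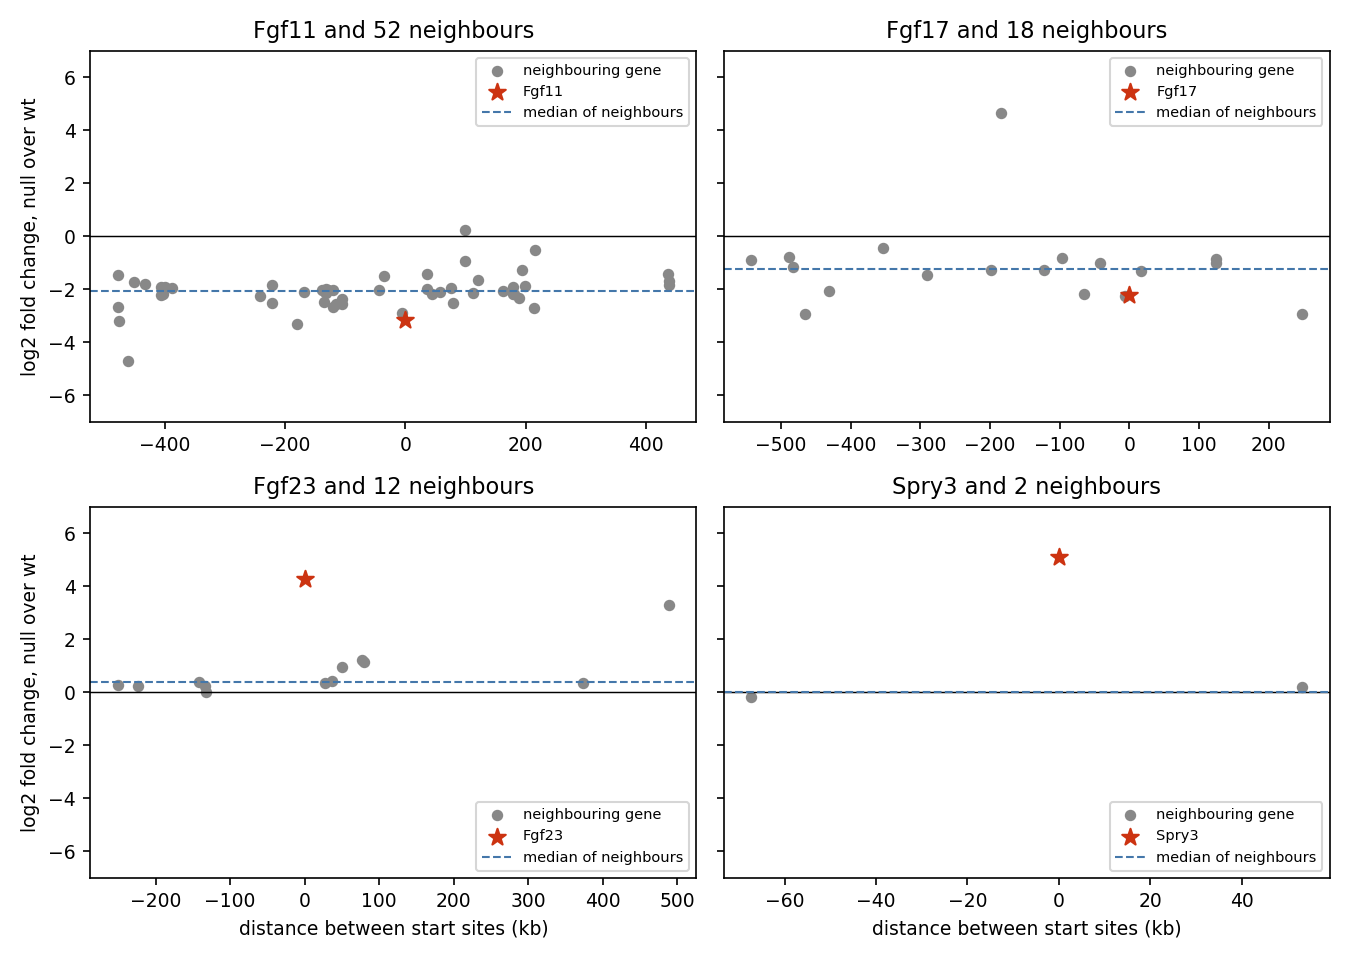
Log2 fold change (y axis) of Fgf11, Fgf17, Fgf23 and Spry3 (stars) and of genes that reach within 500 kb and have a mean normalized count over 100 (points), by the distance between start sites in kb (x axis). The dashed line is the median of the neighbours, at -2.05 for Fgf11, -1.22 for Fgf17, 0.37 for Fgf23 and 0.011 for Spry3.

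Other genes of the pathway were followed in 4 lists with 100 genes, of which 96 were tested. Among 31 tested genes of heparan sulfate and co-receptors, 5 were called higher and 5 lower, beside the 5.52% and 5.25% of all genes given above. L1cam, an adhesion molecule that can engage FGF receptors, went from 3774 and 3764 normalized counts to 41.4 and 52.5, a log2 fold change of -6.32 (SE 0.0801). Sulf2, an enzyme that removes 6-O sulfate from heparan sulfate, went from 2718 and 2852 to 139 and 152 (-4.26, SE 0.0695). Agrn, a heparan sulfate proteoglycan, moved the other way, from 2338 and 2405 to 15668 and 15958 (2.74, SE 0.0291). Il17rd, known as Sef, a membrane antagonist of FGF signalling named here after its values were seen, went from 176 and 191 to 565 and 523 and was called higher (1.57, SE 0.0945). The median log2 fold change of the list was -0.080.

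The signalling chain between receptor and ERK was covered by the next lists. Of 19 adaptors and proximal signalling genes, 1 was called higher, the ubiquitin ligase Cblb (1.06, SE 0.0485), and 0 lower by edgeR. By the adjusted p alone 11 of the 19 rose and 4 fell, and 5 were lower at an unadjusted p under 0.05. Of 18 tested genes of the RAS-ERK core, 1 was called higher, Rps6ka1, a kinase activated by ERK (1.13, SE 0.0552), and 0 lower by edgeR. By the adjusted p alone 12 of the 18 rose and 4 fell, and 4 were lower at an unadjusted p under 0.05. By that adjusted p 32.8% of all genes tested rose and 33.7% fell. DESeq2 also called 0 lower in both lists. Beside 5.52% of all genes tested that were called higher, 1 called gene in either list is close to the background. Median log2 fold changes were 0.093 and 0.25.

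Among 28 other ERK response genes, 8 were called higher and 3 lower, beside 5.52% and 5.25% of all genes tested. Of the 27 with a mean over 100, 11 were called, beside 16.2% of all such genes, and the median log2 fold change of the 28 was 0.33. Fos and Dusp2, both called higher, had wt means of 90.5 and 94.7. They pass the mean cut-off of 100 only through the null cells, so these counts are a description. Egr1, an immediate early zinc finger factor, went from 1406 and 1467 normalized counts to 20052 and 20770, a log2 fold change of 3.83 (SE 0.0332). Fos, a subunit of AP-1, went from 96.9 and 84.0 to 724 and 711 (2.99, SE 0.100). Dusp1, an inducible phosphatase of MAP kinases, went the other way, from 9554 and 9447 to 883 and 1013 (-3.32, SE 0.0448). The ERK response genes beyond the members thus also moved in both directions.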

How the data were processed

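Per the labels and the study's methods, total RNA of 4 libraries was depleted of ribosomal RNA with a stranded kit, paired-end reads were trimmed with Trim Galore!, aligned to mm10 with STAR and counted with TEtranscripts against Gencode and RepeatMasker annotation. The authors deposited raw counts, as whole numbers, of each gene and repeat family. The strand setting and the sharing of reads with several alignments are not given in the sources used here. If such reads were shared, related genes cannot be separated fully.

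Groups came from the labels. Symbols, positions and exon lengths came from GENCODE M21 (GRCm38), which matched 54495 of 54842 gene identifiers. The members and lists were chosen with earlier results of these data known. In R 4.3.3, features that reached 10 counts in 2 or more libraries (25085 genes and 1481 repeat families) were fitted with edgeR 4.0.16 (TMM over genes and repeats, quasi-likelihood test, genotype as the only term), and p-values were adjusted by Benjamini-Hochberg over all 26566 features. Standard errors were derived from the F statistic (log2 fold change over its square root). A call needed an adjusted p under 0.05 with a log2 fold change beyond 1 in either direction and more than 100 normalized counts on average, the cut-offs of the study's methods. Genes named from the pathway lists were the 3 called genes with the largest absolute log2 fold change, or fewer where fewer were called. Outside this rule, Il17rd was named after its values were seen, Kl as the co-receptor of FGF23 and Dusp2 for its wt mean. DESeq2 1.42.0, other scalings and filters, a replicate block, single libraries left out and the longest transcript as length were alternatives. Within a genotype, counts of the libraries varied beyond sampling noise (chi-square over its degrees of freedom was 3.65 for wt and 5.07 for the null cells).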

Additional observations from a re-analysis of the deposited data

How the results depend on the processing

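DESeq2, TMM factors from genes alone, no filter on low counts and the replicate block each left 5 members called higher and 2 lower. Scaling to total counts gave 6 and 2, by adding Fgfrl1 at a log2 fold change of 1.00, and a minimum of 100 counts in every library gave 4 and 2, since Spry3, with 20 counts in each wt library, was then not tested. Leaving out single libraries gave 5 to 6 higher and 2 lower, the added gene being Fgf23, whose mean passes 100 by construction once a low wt library is left out, so that this gain does not bear on stability. When the adjusted p alone decided, at 0.05, 12 members were higher and 12 lower, as were 14 and 14 heparan sulfate and co-receptor genes, 11 and 4 adaptors, 12 and 4 RAS-ERK genes and 19 and 8 other ERK response genes, beside 32.8% and 33.7% of all genes tested. Etv5 turned from -0.040 to 0.030 with scaling to total counts and ranged from -0.081 to 0.056 with single libraries left out, being 0.056 without Top2β-null replicate 1. Of 161 values of single members with all libraries kept, 159 kept their direction and their side of the call, and of 104 with a library left out 101 did. Same-numbered libraries did not deviate together across features (correlation 0.021 over 17952 features). This value cannot show whether they shared a culture or a run. With the replicate block Top2b had a log2 fold change of -2.26, Spry1 -1.41 and Dusp6 1.42. With the longest transcript as length, Fgf7 gave 74.4% of the ligand level in wt and 88.5% in the null cells, and Dusp6 gave 15.0% and 45.5% of the phosphatase level. With 2 libraries per genotype the depth limits Fgf1, Fgf14, Fgf17 and Fgf18, which had fewer than 31 counts in every library.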
